A study of Mus musculus with 65 samples.

Results

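Caloric restriction (CR) at 6 months was examined in the spinal cord by setting the 8 CR mice of that age (3 males and 5 females) against the 10 mice of that age fed ad libitum (AL, 5 males and 5 females), out of 65 mice in the series. All were C57BL/6 mice, an inbred strain, and the labels name no allele or agent besides the diet. CR mice ate the full ration until week 13, were then stepped down, and finally received 60% of the ration as a fortified feed until they were killed, whereas AL mice received 100% of the regular feed, so that amount and formulation changed together. The CR mice were 174 to 194 days old (mean 186.9) and the AL mice 169 to 194 days old (mean 184.9). RNA from the spinal cord of each mouse was made into radioactive cDNA and hybridized to its own filter B of the NIA cDNA set, on which cDNA clones are spotted on nylon. The deposited value of a feature (a spotted clone) is a Z score, in which 0 is the mean and 1 the SD of the 8448 features of that array. Differences below are CR minus AL in these units, with both sexes weighted equally, and are not folds. A Z score shows a feature only relative to the rest of its array. Of the features, 4875 (57.7%) carried 1 gene symbol, and these covered 4209 genes. The question was which genes of the cord differed after the first months of a reduced ration, whether they did so in both sexes, and whether the difference was that of older mice.

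CR in rodents lowers circulating insulin and insulin-like growth factor 1 and raises circulating glucocorticoids. Glucocorticoids act through the glucocorticoid receptor, a nuclear receptor that binds DNA as a dimer at inverted repeats and raises transcription of genes such as Sgk1, Fkbp5 and Per1 in many tissues. Sgk1 encodes the serum- and glucocorticoid-inducible kinase, a relative of Akt that is activated downstream of PI3-kinase and mTOR complex 2 and controls ion channels and transporters, in part through the ubiquitin ligase Nedd4-2. Plk2 encodes a polo-like kinase that neurons induce during prolonged activity and that phosphorylates the synaptic protein Sipa1l1 (SPAR) and alpha-synuclein. Sgk1 and Plk2 were the features that passed the test at 6 months.

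Because these kinase genes are known as targets of signal-dependent transcription factors, 250 bases upstream of a start site of each are shown (RefSeq, build GRCm38.p6, plus strand). For Sgk1 the sequence is chr10:21993640-21993889 and the capitals mark an inverted repeat of the glucocorticoid half-site, 189 to 175 bases before the start. For Plk2 it is chr13:110394794-110395043 and the capitals mark a cAMP response element, 62 to 55 bases before the start.
Sgk1: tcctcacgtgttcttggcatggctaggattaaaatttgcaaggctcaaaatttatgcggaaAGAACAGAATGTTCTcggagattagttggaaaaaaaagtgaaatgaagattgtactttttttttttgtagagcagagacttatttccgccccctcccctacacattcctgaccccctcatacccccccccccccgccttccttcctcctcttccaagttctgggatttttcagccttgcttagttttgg
Plk2: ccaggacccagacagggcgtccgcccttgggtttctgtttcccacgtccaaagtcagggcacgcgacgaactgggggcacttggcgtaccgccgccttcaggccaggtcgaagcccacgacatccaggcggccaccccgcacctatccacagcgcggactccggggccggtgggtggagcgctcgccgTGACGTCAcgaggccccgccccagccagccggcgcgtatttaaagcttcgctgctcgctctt
The motifs were read on both strands in windows of 250 bases before to 50 after each start, with these sequences already in view. The inverted repeat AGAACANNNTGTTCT was held by 3 of 32851 windows (0.00913%), and 1 of the 6 windows of Sgk1 was among them. The half-site AGAACA, which is contained in that repeat, was held by 19.0% of all windows and by 3 of the 6 of Sgk1. The cAMP response element TGACGTCA was held by 1.79% of all windows, including the single window of Plk2, and the inverted repeat was not in the Plk2 window. Of 9 genes of the glucocorticoid list below that matched a window, only Sgk1 held the inverted repeat. The E-box CACGTG was held by 1 Sgk1 window, against 7.15% of all windows. The forkhead motif GTAAACA (3.65% of windows) and the AP-1 motif TGACTCA (5.2%) were in no window of either gene. Over 3435 measured genes, the inverted repeat was held by 0.0291% and the half-site by 13.8%. The cAMP response element was held by 3.44% of these genes, the E-box by 12.9%, the forkhead motif by 3.26% and the AP-1 motif by 4.34%. A match describes letters and does not show binding, and the clone on the array does not tell which start site was used.

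Some arrays stood apart. Arrays 31 (CR male), 32 (CR female) and 33 (AL male) had median correlations with the other arrays of 0.92, 0.894 and 0.731, against 0.9565 to 0.9778 in the other 15 arrays of 6 months. The arrays also fell into 2 runs by number, which the labels do not name: the first held 6 CR and 8 AL mice of 6 months, and the second held arrays 31 to 33 and 1 further AL female. The called genes, the counts and most named features are therefore given with all 18 mice and without arrays 31 to 33 (6 CR and 9 AL mice), and some also within the first run (6 CR and 8 AL mice), a setting added after the data were seen. Values with no setting named are with all 18 mice. Of 7 defining spinal cord markers, only the neurofilament gene Nefl was measured here, with features at the 83.3 and 76.9 percentile of the arrays, so these markers could check the tissue label on neurons alone. In bulk tissue, fewer cells of a type and less RNA per cell cannot be told apart. Different clones of a gene often gave different levels: across 561 genes spotted more than once, the mean Z of the first clone had a Pearson correlation of 0.122 with that of the second. The difference between the diets had the same sign in 52.4% of these genes. These are genes of the same arrays and not independent replicates, and each gene name below stands for the clone at 1 spot. Sgk1 and Plk2 had 1 named clone each, so their differences could not be compared with those of another clone.

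Sgk1 was the clearest difference of the comparison. In CR males it measured -0.82, -0.97 and -0.89, against -1.51, -1.49, -1.10, -1.46 and -1.56 in AL males. In CR females it measured -1.01, -1.18, -0.94, -1.01 and -1.12, against -1.40, -1.29, -1.72, -1.42 and -1.61 in AL females. Every CR mouse lay above every AL mouse of its own sex, and over both sexes the groups overlapped only through the AL male of array 33, at -1.10. With so few mice of a sex such a separation can arise by chance, and no share over all features is given for it. Sgk1 averaged -0.992 ± 0.117 in CR mice (SD, n = 8) and -1.46 ± 0.172 in AL mice (SD, n = 10). The difference was 0.483 (SE 0.0763, limma adjusted p = 0.0004), and 8 of 8 CR mice were above the AL mean. Permuting diet within sex gave an exact 2-sided p of 7.09e-05, the smallest that 14112 arrangements allow. Such permutations were run only for features already called in these mice, with no adjustment over features. Their p-values, here and below, are therefore not independent support.

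Without arrays 31 to 33, Sgk1 ranged from -1.18 to -0.82 in CR mice and from -1.72 to -1.29 in AL mice. Over the 15 remaining mice it was the single feature of 8448 (0.0118%) in which every CR mouse exceeded every AL mouse. Among 8448 features a full separation of groups this small can also arise by chance, so this count alone does not mark Sgk1 out. No feature had every CR mouse below every AL mouse (0.0%), and with all 18 mice no feature separated the groups upward (0.0%). The difference was then 0.529 (SE 0.083, adjusted p = 0.000439) and the exact permutation p was 0.000529, again the smallest possible. Within the first run it was 0.50 (SE 0.073, adjusted p = 0.000915). Leaving out each of the 18 mice in turn kept the call in every fit, with differences of 0.454 to 0.524 and a highest adjusted p of 0.00344. The clone gives a weak signal, at the 9.96 percentile of the features on average, and lay below the mean of the array in every mouse.

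Plk2 was the second feature that rose. In CR males it measured -1.58, -1.35 and -1.55, against -2.66, -2.03, -2.39, -1.90 and -1.80 in AL males. In CR females it measured -1.58, -1.50, -0.85, -1.79 and -1.12, against -1.80, -1.71, -1.61, -1.72 and -1.63 in AL females, where 1 CR female lay among the AL females. The highest CR value was that of array 32, and array 33 gave the second lowest AL value. Plk2 averaged -1.42 ± 0.30 in CR mice (SD, n = 8) and -1.93 ± 0.345 in AL mice (SD, n = 10), at the 5.28 percentile of the array. The difference was 0.494 (SE 0.0958, adjusted p = 0.0151; exact permutation p = 0.0039). Without arrays 31 to 33 it was 0.364 (SE 0.0992, adjusted p = 1.00; exact permutation p = 0.0333), and within the first run 0.375 (SE 0.104, adjusted p = 1.00). The call of Plk2 was lost in 5 of 18 fits that each left out 1 mouse, with an adjusted p of 0.22 without array 31, the CR male replicate 2.

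**Figure D1:**
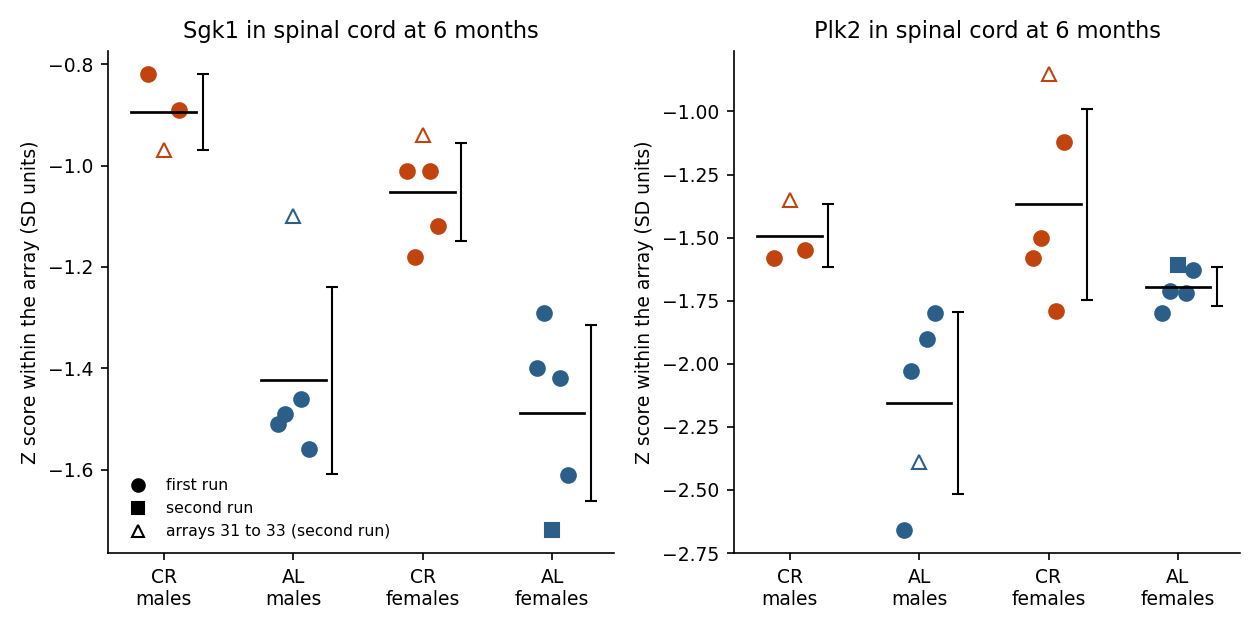
Z score of Sgk1 (left) and Plk2 (right) in each mouse of 6 months, by diet and sex, with the mean as a line and the SD as a bar beside it. Circles are arrays of the first run, the square is an array of the second run, and open triangles are arrays 31 to 33. The Sgk1 values of the 8 CR mice, -1.18 to -0.82, lie above all AL values but the open triangle at -1.10.

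These were the only features called, 2 higher of 8448 (0.0237%) and 0 lower (0.0%). At an unadjusted p below 0.05 there were 401 higher (4.75%) and 255 lower features (3.02%). Without arrays 31 to 33 only Sgk1 was called (0.0118%), and the unadjusted counts were 73 higher (0.864%) and 42 lower (0.497%). The 656 features of the first count and the 115 of the second shared 44, which is 6.71% of the 656 and 38.3% of the 115. The median size of the difference over the 656 features was 0.139 with all mice and 0.0488 without the 3 arrays. Leaving out array 31 alone left 185 features at an unadjusted p below 0.05, leaving out array 32 alone left 388, and leaving out array 33 alone left 1143.

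**Figure D2:**
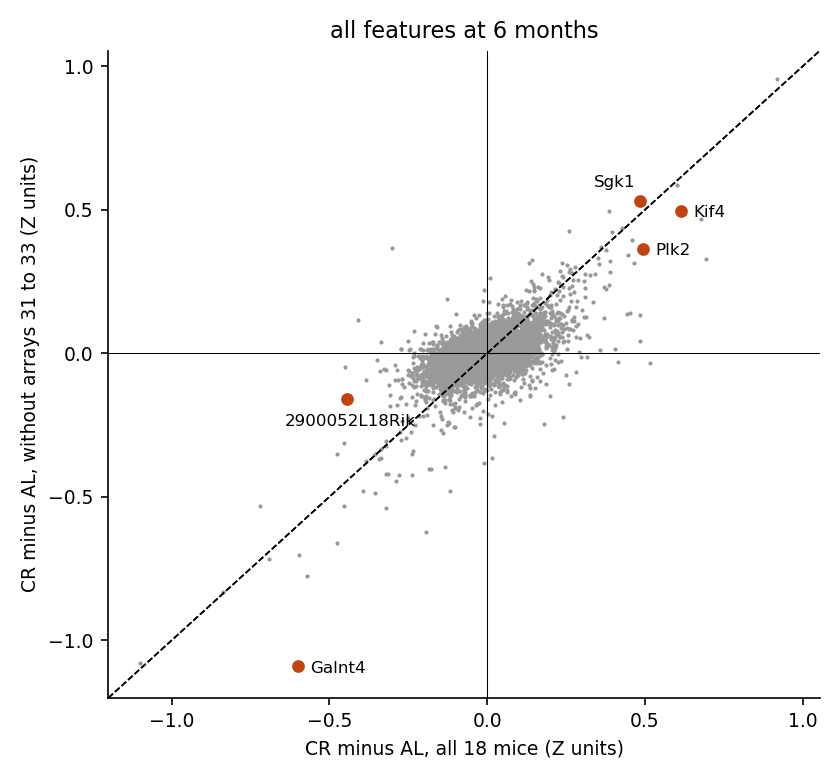
CR minus AL at 6 months for each of the 8448 features, with all 18 mice on the horizontal axis and without arrays 31 to 33 on the vertical axis, both in Z units, with the line of equality dashed. Sgk1 stays near the line at 0.483 and 0.529, while the median size over the 656 features of an unadjusted p below 0.05 is 0.139 on the horizontal and 0.0488 on the vertical axis.

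The effect was next taken in each sex. In males 0 features were called, with 822 at an unadjusted p below 0.05, and in females 0 were called, with 349. Without arrays 31 to 33 the unadjusted counts were 82 in males and 122 in females, with 0 called in either, so that the larger count in males with all mice turned into a smaller one. Array 31 was a CR male, so without these arrays and in the first run the CR males were arrays 17 and 50 alone. Among features with a gene symbol, the smallest p-values in males belonged to Sgk1 (0.531, SE 0.115, adjusted p = 0.118), Plk2 (0.663, SE 0.145, adjusted p = 0.118) and Lifr, the receptor of leukemia inhibitory factor (-0.71, SE 0.164, adjusted p = 0.16). Without the 3 arrays these differences in males were 0.65 for Sgk1 (SE 0.131, adjusted p = 0.0703), 0.532 for Plk2 (SE 0.157) and -0.188 for Lifr (SE 0.106), the last pair with an adjusted p of 1.00. The smallest p-values in females, again among features with a gene symbol, belonged to Sgk1 (0.436, SE 0.0998, adjusted p = 0.481), Kif4, a kinesin of chromosomes and axonal transport (0.768, SE 0.22, adjusted p = 0.997), and Vars2, the mitochondrial valyl-tRNA synthetase (0.238, SE 0.0694, adjusted p = 0.997). Without the 3 arrays the differences in females were 0.408 for Sgk1, 0.598 for Kif4 and 0.221 for Vars2, each with an adjusted p of 1.00, and Plk2 differed by 0.326 in females with all mice and by 0.197 without them. In the first run alone Sgk1 passed in males (0.65, SE 0.113, adjusted p = 0.0208) and not in females (0.35, SE 0.0924, adjusted p = 0.999).

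The sex difference itself was not called for any feature, with 508 at an unadjusted p below 0.05 with all mice, 68 without arrays 31 to 33 and 56 in the first run. For Sgk1 it was 0.0947 (SE 0.153, adjusted p = 0.864) with all mice, 0.242 (SE 0.166, adjusted p = 1.00) without the 3 arrays and 0.30 (SE 0.146, adjusted p = 1.00) in the first run, and for Plk2 0.337 (SE 0.192, adjusted p = 0.72). The values without the 3 arrays and in the first run rest on the CR males of arrays 17 and 50 alone. The features with a symbol and the smallest p were Txndc17, a thioredoxin-like protein (-0.723), Lifr (-0.738) and Anapc1, a subunit of the anaphase-promoting complex (-0.38), each with an adjusted p of 0.72. Without the 3 arrays these were -0.301, -0.252 and -0.203, each with an adjusted p of 1.00. Array 33 carried the highest AL value of Txndc17, 0.59, and of Lifr, -0.08, and array 31 the lowest CR value of both, -1.28 and -2.40. With all mice the sex difference was -0.0907 (SE 0.113, adjusted p = 0.817) in a second clone of Txndc17. In other clones of Anapc1 it was 0.11 and 0.125.

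Setting the 6-month effect beside those of older mice used 10 CR and 10 AL mice of 16 months and 7 CR and 10 AL mice of 24 months. Sgk1 averaged -0.992 ± 0.117 in CR and -1.46 ± 0.172 in AL mice at 6 months, -1.14 ± 0.19 and -1.39 ± 0.107 at 16 months, and -1.31 ± 0.249 and -1.33 ± 0.15 at 24 months, CR given first at each age. AL mice thus stayed between -1.46 and -1.33 over these ages and were at -1.39 ± 0.146 as juveniles (n = 10), and the difference was 0.483 at 6 months, 0.253 at 16 months and 0.00575 at 24 months. The CR mice of 24 months spread from -1.55 to -0.92, and the sexes went opposite ways at that age. CR males averaged -1.41 ± 0.0794 (SD, n = 3) against -1.26 ± 0.185 in AL males (n = 5). CR females averaged -1.23 ± 0.318 (n = 4) against -1.39 ± 0.0791 in AL females (n = 5). The sex difference at 24 months was not tested. The 6-month effect exceeded that of 24 months by 0.478 (SE 0.109, adjusted p = 0.475) and that of 16 months by 0.23 (SE 0.104, adjusted p = 0.997), and neither passed. Without arrays 31 to 33 the first of these was 0.523 (SE 0.112, adjusted p = 0.184). In the first run alone the 6-month effect exceeded that of 24 months by 0.69 (SE 0.118, adjusted p = 0.015). There the 24-month difference, over 4 CR and 4 AL mice, was itself -0.19 (SE 0.0924, adjusted p = 0.305).

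Plk2 averaged -1.78 ± 0.168 in CR and -1.74 ± 0.129 in AL mice at 16 months, and -1.71 ± 0.115 in CR and -1.68 ± 0.206 in AL mice at 24 months. Its difference was -0.045 at 16 months and -0.0174 at 24 months. The AL mice of 6 months, at -1.93 ± 0.345, included the lowest Plk2 values of all adult AL mice, down to -2.66. The 6-month effect of Plk2 exceeded that of 16 months by 0.539 (SE 0.131, adjusted p = 0.997) and that of 24 months by 0.512 (SE 0.137, adjusted p = 0.999), and without arrays 31 to 33 by 0.409 (SE 0.128) and 0.382 (SE 0.134). In the first run these were 0.44 (SE 0.147) and 0.193 (SE 0.168), and the 24-month difference of Plk2 there was 0.182 (SE 0.132). Across all features, 0 were called in either comparison of ages, with 237 at an unadjusted p below 0.05 against 16 months and 132 against 24 months. With arrays 31 to 33 left out these counts were 89 and 527, again with 0 called, and in the first run 201 and 952, with 1 called against 24 months, so that the order of the counts turned round. The count for CR minus AL at 24 months itself was 627 with all mice, 1407 without the 3 arrays and 1379 in the first run. Kif4 followed with 0.821 (SE 0.229) against 16 months and 0.686 (SE 0.241) against 24 months, and Txndc17 with -0.466 (SE 0.144) against 16 months, and without the 3 arrays these were 0.704, 0.569 and -0.303.

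**Figure D3:**
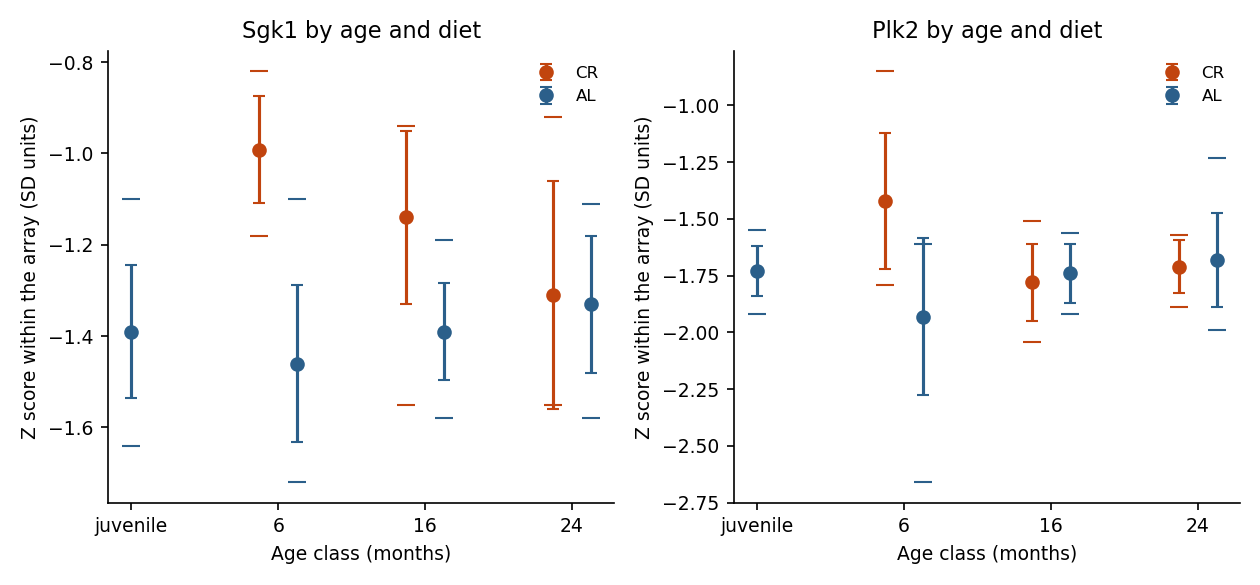
Mean Z score of Sgk1 (left) and Plk2 (right) by age class in months and diet, with bars for the SD between mice and dashes at the lowest and highest mouse. The CR and AL means of Sgk1 over both sexes are -0.992 and -1.46 at 6 months and nearly coincide at 24 months, at -1.31 and -1.33. At 24 months the mean was lower in CR than in AL males and higher in CR than in AL females (sexes not shown apart).

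The next 18 named features, taken by smallest p until there were 10 higher and 10 lower in all, had adjusted p-values of 0.54 to 0.576 and none was called. Higher in CR were, with values not past the test, Kif4 (0.613, SE 0.168), the microtubule-binding protein Wdr47 (0.184, SE 0.0497), the annexin Anxa7 (0.204, SE 0.0564), the ribosomal protein Rps15 (0.175, SE 0.05), the translation initiation scaffold Eif4g3 (0.201, SE 0.0576), the lipid droplet hydrolase Ldah (0.236, SE 0.0688), Vars2 (0.177, SE 0.053) and the LIM domain protein Lmcd1 (0.236, SE 0.0736). Kif4 ranged from -2.49 to -1.22 in CR mice with a median of -1.925, against -3.26 to -1.62 in AL mice with a median of -2.44. Its clone gave a weak signal, at the 2.76 percentile of the array, which limits what its differences here and above can show. Wdr47 ranged from 0.36 to 0.78 in CR mice with a median of 0.45, against 0.05 to 0.43 in AL mice with a median of 0.365. The top of its CR range was array 32 and the bottom of its AL range array 33.

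Lower in CR, again with values not past the test, were the RIKEN transcript 2900052L18Rik (-0.444, SE 0.115), the zinc and manganese transporter Slc39a8 (-0.224, SE 0.0623), the complex III subunit Uqcrb (-0.193, SE 0.0547), the inhibitor of basic helix-loop-helix factors Id2 (-0.199, SE 0.057) and the long noncoding RNA Platr26 (-0.227, SE 0.0692). The remaining ones were the FGF receptor-like protein Fgfrl1 (-0.193, SE 0.0597), Lifr (-0.341, SE 0.109), the protein repair methyltransferase Pcmt1 (-0.223, SE 0.0713), the embryonic globin Hbb-y (-0.25, SE 0.0804) and the coiled-coil protein Ccdc86 (-0.202, SE 0.0652). 2900052L18Rik ranged from -2.54 to -0.55 in CR mice with a median of -0.72, against -0.99 to -0.32 in AL mice with a median of -0.635. Its lowest CR value came from array 31, and without the 3 arrays the CR range was -1.11 to -0.55.

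In 17 of these 18 features the CR value farthest in the direction of the difference was that of array 31 or 32. When arrays 31 to 33 were left out all 20 features kept their sign and 10 had an unadjusted p below 0.05. The 20 were chosen in a fit that held these same mice, so that agreement is not independent. Of all 656 features at an unadjusted p below 0.05 with all mice, 621 kept their sign. The differences of the 20 were at a median of 0.504 times their size with all mice, and Sgk1 was the 1 of them whose difference was larger. The differences that stayed closest to their size were those of Fgfrl1 (-0.169), Eif4g3 (0.16), Kif4 (0.496) and Platr26 (-0.179), and those of Lifr (-0.0615) and Hbb-y (-0.075) were among the 9 that shrank by more than 50 percent. Other clones of the same genes did not always go along: the second clone of Anxa7 differed by 0.016, that of Id2 by -0.073 and that of Uqcrb by -0.0587, whereas the other clones of Rps15 differed by 0.122 and 0.0527, and those of Hbb-y by -0.176, -0.116 and -0.0867. With arrays 31 to 33 left out the other clones of Rps15 differed by 0.00625 and -0.004, and those of Hbb-y by -0.00125, 0.0118 and 0.0253. Of the 20 differences, 10 had the same sign at 16 months and 16 at 24 months, with no share over all features set beside these counts.

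**Figure D4:**
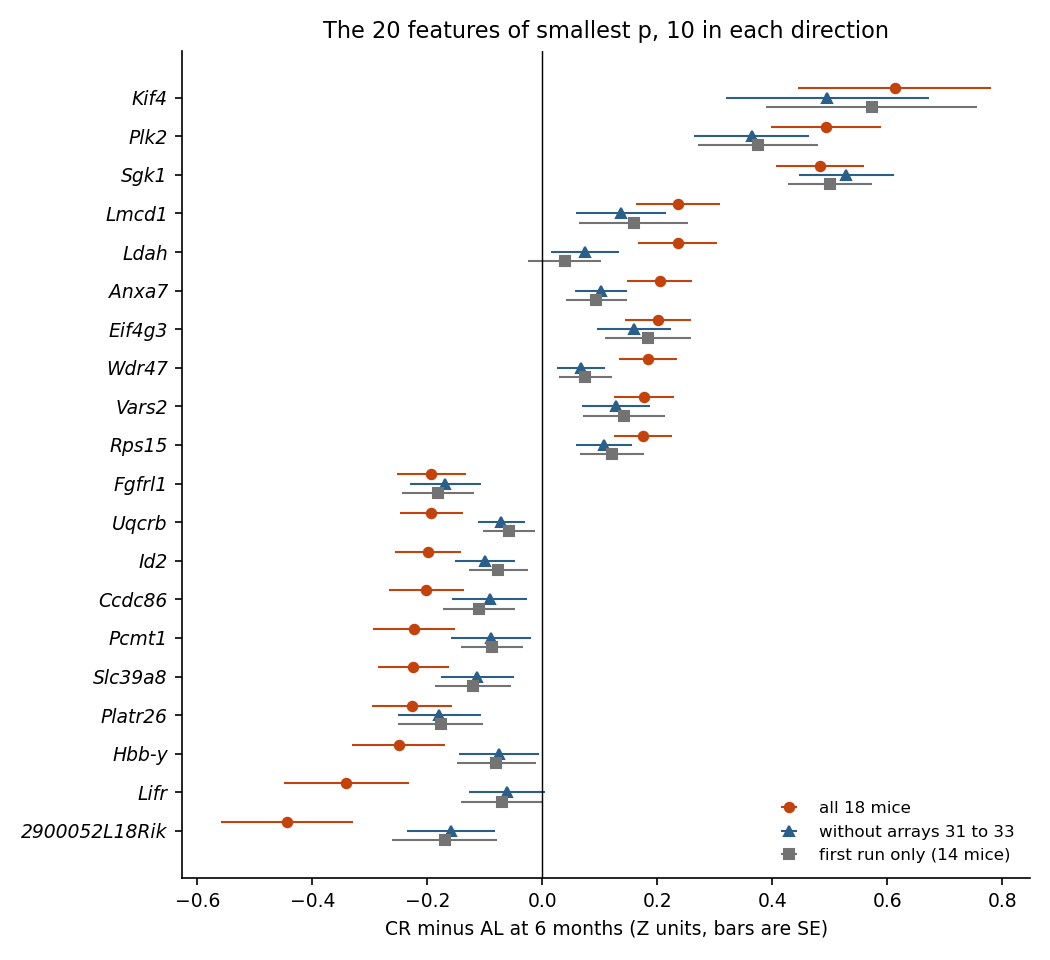
CR minus AL at 6 months in Z units, with SE bars, for the 20 named features of smallest p, with all 18 mice (circles), without arrays 31 to 33 (triangles) and within the 14 mice of the first run (squares). Sgk1 keeps a difference of 0.483 to 0.529 in all 3 settings, while that of Lifr lies at -0.341 with all mice and at -0.0615 without the 3 arrays.

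In the fit without arrays 31 to 33, the 5 named features of smallest p in each direction included Sgk1 and Plk2 among the higher ones. The other 3 higher in CR were the adhesion receptor Adgra3 (0.137, against 0.134 with all mice), the metalloproteinase inhibitor Timp2 (0.316, against 0.132) and Ngdn, which encodes neuroguidin (0.126, against 0.103). Lower in CR were the arsenite methyltransferase As3mt (-0.166, against -0.141), Galnt4, an enzyme that starts mucin-type glycosylation (-1.09, against -0.599), Fgfrl1 (-0.169), Platr26 (-0.179) and the secreted protease inhibitor Cst3 (-0.152, against -0.199). All had an adjusted p of 1.00. Adgra3 ranged from 0.33 to 0.55 in these CR mice and from 0.17 to 0.42 in AL mice, and As3mt from -1.33 to -1.06 in CR mice and from -1.19 to -0.88 in AL mice. Galnt4 lay at the 0.969 percentile of the array, among the weakest signals, and spread from -5.38 to -2.40 in CR mice and from -4.14 to -2.35 in AL mice. A second clone of Timp2 differed by 0.0775.

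Gene groups were described by the number of genes above or below 0 and by their median difference, beside the same over all named genes. Over those, 2109 of 4209 were above 0 and the median was 0.000167, or 0.00175 without arrays 31 to 33. Of the targets and partners of the glucocorticoid receptor, 13 were measured, 1 was called (Sgk1), and 10 were above 0 with a median of 0.041. Without the 3 arrays, 8 of the 13 were above 0 and the median was 0.0198. Fkbp5, a cochaperone of the receptor that glucocorticoids induce, differed by 0.0403 (SE 0.0668), ranging from -0.95 to -0.41 in CR mice and from -0.87 to -0.32 in AL mice. Nr3c1, the receptor itself, differed by -0.042 (SE 0.0682), Txnip, an inhibitor of thioredoxin and glucose uptake, by 0.1 (SE 0.055) and Sesn1, a stress-inducible inhibitor of mTOR complex 1, by 0.129 (SE 0.0729). When arrays 31 to 33 were left out, Txnip differed by 0.0198 and Sesn1 by 0.0203. The other measured members of the list also missed an unadjusted p of 0.05. The arrestin-domain genes Arrdc2 and Arrdc3 differed by -0.0777 and 0.00333, the membrane-binding Anxa2 by 0.0637, the transglutaminase Tgm2 by 0.041 and Glcci1, named for its induction by glucocorticoids, by 0.0557. The survival factor Bcl2l1 differed by -0.0467, the receptor chaperone Hsp90aa1 by 0.042 and the cell cycle inhibitor Cdkn1c by 0.01. Without the 3 arrays Anxa2 differed by 0.0382, Glcci1 by -0.0558 and Nr3c1 by 0.0208, and the other members except Sgk1 lay between -0.0602 and 0.0542.

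Among kinases and partners of the Sgk pathway, 13 genes were measured, of which Sgk1 was the single Sgk gene, 1 was called, and 8 were above 0 with a median of 0.009. The ubiquitin ligase Nedd4 differed by -0.108 (SE 0.0506), and by -0.05 without the 3 arrays. Pikfyve, a lipid kinase, differed by 0.316, -0.102 and -0.008 in its 3 clones, and the kinase Wnk4 by 0.125 and 0.0177. With the 3 arrays left out Pikfyve differed by 0.0638, -0.255 and -0.0065, and Wnk4 by 0.174 (unadjusted p = 0.0249) and 0.0213. The lowest AL value of the first Pikfyve clone was -3.59. Of the substrates, Foxo1 differed by -0.003 (SE 0.051), Ndrg2 by 0.009 (SE 0.0455) and 2 clones of Gsk3b by 0.0993 and -0.0177. Among polo-like kinases and partners, 8 genes were measured, 1 was called (Plk2), and 2 were above 0 with a median of -0.0173, or 5 above 0 with 0.0145 without the 3 arrays. Plk5, a relative expressed mainly in the nervous system, differed by 0.008 (SE 0.0659), and the Plk2 substrate Sipa1l1 by -0.154 (SE 0.0649) and by 0 in its 2 clones. The first of these was -0.0152 without the 3 arrays.

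Of genes that neuronal activity induces, 8 were measured and 1 was called, again Plk2. The median was -0.0578 with all mice and 0.0219 without the 3 arrays. The immediate-early genes Egr1 (-0.164, SE 0.081), Ier2 (-0.0403, SE 0.0609), Fosl2 (-0.0753, SE 0.127) and Nr4a2 (-0.0177, SE 0.0613) were below 0, and without the 3 arrays they differed by -0.0435, 0.0125, 0.0445 and 0.0517. The activin subunit Inhba and the pseudokinase Trib1 differed by -0.118 each with all mice, and the antiproliferative Btg1 by 0.0763, against -0.0478, -0.0348 and 0.0312 without the 3 arrays. Of 10 clock genes none was called and 2 were above 0, with a median of -0.0525, or -0.0133 without the 3 arrays. The smallest p-values belonged to the clock kinase Csnk1d (0.084, SE 0.0432) and to Tipin, the partner of Timeless (-0.136, SE 0.0854). Of the core genes, named here for their role after the values were seen, Arntl, the partner of Clock, differed by -0.0663 (SE 0.0497) and Per3, a repressor of the clock, by -0.01 (SE 0.0581).

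Insulin and nutrient sensing had 22 measured genes, 11 of them above 0, a median of 0.00883 and no call. With all mice, 4 of its 27 features were higher at an unadjusted p below 0.05, against 4.75% of all features, and without arrays 31 to 33 none was. One feature, a clone of Pik3ca, the catalytic subunit of PI3-kinase, was lower (-0.178), while another clone of Pik3ca was among the higher ones (0.091), and without the 3 arrays these differed by -0.024 and 0.046. The higher ones also included the binding protein Igfbp3 (0.159, SE 0.0534) and the AMP-activated kinase subunits Prkab2 (0.152, SE 0.0521) and Prkaa1 (0.118, SE 0.0459), which differed by 0.063, 0.0635 and 0.031 without the 3 arrays. Again named for their role, Igf1 differed by -0.146 and 0.0243 in its 2 clones (-0.00975 and 0.00725 without the 3 arrays), Irs1, an adaptor of the insulin receptor, by 0.0237 and Mtor by -0.00667.

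In metabolism, no gene was called. The median was -0.0157 over 8 genes of fatty acid and cholesterol synthesis, 0.0372 over 14 genes of fatty acid oxidation and ketone use, -0.0222 over 20 genes of glycolysis and the TCA cycle and -0.0157 over 41 genes of oxidative phosphorylation. When the 3 arrays were left out these were 0.0015, -0.00125, 0.0159 and -0.0035. Srebf1, which drives lipid synthesis, differed by -0.0917 (SE 0.0653) and Stard4, a sterol carrier, by 0.16 (SE 0.102), and by 0.0403 and -0.0138 without the 3 arrays. Pcx, the pyruvate carboxylase that refills the TCA cycle, differed by 0.141 (SE 0.0507) with all mice and by 0.134 without the 3 arrays. Acadvl, the acyl-CoA dehydrogenase of very long chains, differed by 0.117 (SE 0.0641) and 0.168, and Hadh, of the same pathway, by -0.203 (SE 0.104) and -0.0105. Suclg2, of the TCA cycle, differed by -0.101 (SE 0.0521) and -0.064, and Ndufs7, a subunit of complex I, by -0.121 (SE 0.046) and -0.0293.

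Protein turnover and stress defence held no call either. The median was -0.0195 over 53 cytosolic ribosome genes, 0.0142 over 23 chaperones, -0.00283 over 30 ubiquitin and proteasome genes, -0.0403 over 32 genes of autophagy and lysosomes, -0.0323 over 25 antioxidant genes and -0.0113 over 27 genes of DNA repair and telomeres. With the 3 arrays left out these were 0.0055, 0.0152, 0.00313, -0.00025, 0.0145 and -0.00325. Hspa8, the constitutive heat shock cognate, differed by 0.174 and -0.17 in its 2 clones, and Psmd2, a base subunit of the proteasome, by 0.14 (SE 0.0509), against 0.12, -0.0145 and 0.0403 without the 3 arrays. Hspa12a differed by -0.138 and 0.0233 in its 2 clones, the ribosomal stalk protein Rplp2 by -0.128 and -0.113, and Psmd10, an assembly factor of the proteasome, by -0.238 and 0.0993. When the 3 arrays were left out Hspa12a differed by -0.0455 and -0.038, Rplp2 by -0.0535 and -0.0035, and Psmd10 by -0.0785 and 0.0415. Lamp2, of the lysosomal membrane, differed by -0.159 and 0.078, and by 0.0203 and 0.065 without the 3 arrays. The peroxiredoxin Prdx2 differed by 0.102, and the repair genes Xrcc6 and Msh6 by 0.125 and 0.145, against 0.0185, 0.0227 and 0.0095 without the 3 arrays. The glutathione transferase Gstm2 differed by 0.112 (SE 0.0399), and by 0.0432 without the 3 arrays.

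Markers of the cell types of the cord and its surroundings were set beside these results. With all mice the median was -0.0703 over 7 neuronal genes, -0.00933 over 7 oligodendrocyte genes, 0.00833 over 8 astrocyte genes, 0.00633 over 13 microglial genes, 0.0166 over 8 blood genes and -0.00667 over 9 vascular genes. With arrays 31 to 33 left out these were 0.0344, 0.00275, 0.0085, -0.006, -0.0367 and -0.012. Neuronal genes thus had a median below 0 with all mice and above 0 without the 3 arrays, and 6 of the 7 were below 0 with all mice against 1 of 7 without them. The 2 clones of Nefl averaged 0.906 ± 0.453 and 0.711 ± 0.603 in CR mice (SD, n = 8), against 1.03 ± 0.33 and 0.812 ± 0.574 in AL mice (SD, n = 10). Genes of the meninges and extracellular matrix had a median of 0.00408 over 23 genes, skeletal muscle -0.0592 over 6, ependyma and choroid plexus -0.0263 over 5, adipose tissue -0.0115 over 3 and genes of synaptic transmission -0.01 over 9. With the 3 arrays left out these were -0.0095, -0.00888, -0.00975, 0.003 and 0.0315. The potassium channel Kcnd2 differed by 0.13 (SE 0.05), and by 0.0205 without the 3 arrays. Pmp22, the single Schwann cell gene measured, differed by -0.216 (SE 0.148), and the sex-linked Xist and Uty by 0.0543 and 0.126. The part of these markers in the differences of Sgk1 and Plk2 was not tested.

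**Figure D5:**
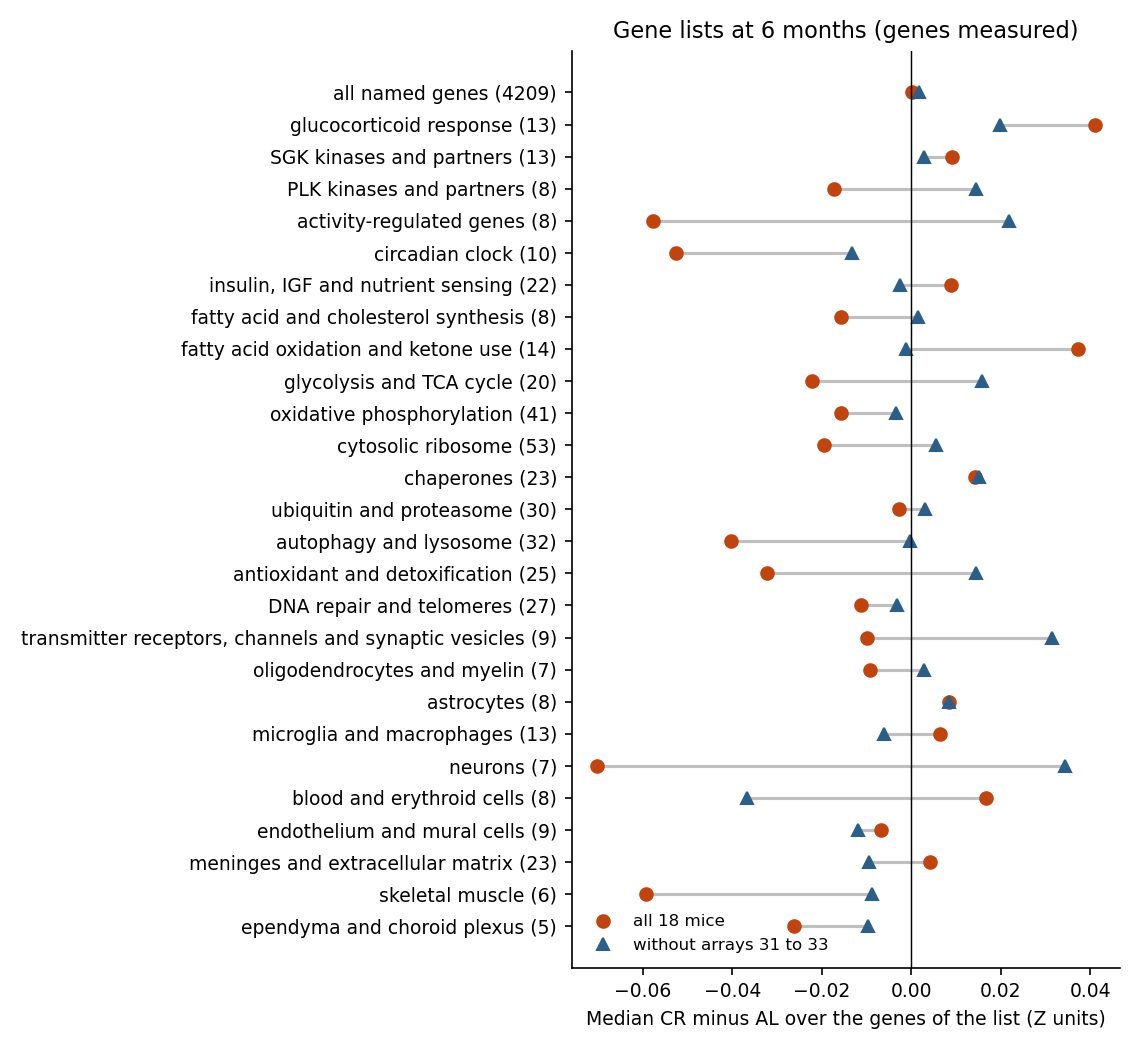
Median CR minus AL at 6 months over the genes of each list of at least 5 measured genes, in Z units, with all 18 mice (circles) and without arrays 31 to 33 (triangles), and the number of genes in brackets. The medians lie between -0.0703 and 0.041 with all mice and between -0.0367 and 0.0344 without the 3 arrays, and 15 of the 26 lists change sign between these settings.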

How the data were processed

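The deposited values of the 65 arrays are a score, the Z score by which the authors scaled each array after extracting spot intensities with ArrayPro. No source used here states a log base or background treatment, and the scores carry no depth, so precision rests on the number of arrays. By the study's methods mice were housed singly and samples handled in balanced batches. limma (version 3.58.1, R 4.3.3) was fitted to all 65 arrays with 14 means of stage, diet and sex (51 residual degrees of freedom). P-values were adjusted by Benjamini-Hochberg over 8448 features and features under 0.05 were called. Called genes were also permuted exactly within sex, with no adjustment over features. The fitting code was tested on simulated data. Members and gene lists were chosen with earlier results of these data known. Named were the called features, those of smallest p to 10 in each direction, the first 5 in each direction without arrays 31 to 33, the first 3 of each sex and age comparison, the first 2 genes of each list, and all Sgk, Plk, glucocorticoid and activity genes. A list gene was the mean of its features. Symbols came from the platform annotation, and 4861 of the 4875 were in the RefSeq table (224 features had several symbols and 3349 none). Alternatives covered arrays, runs, samples in the fit, scaling, filters, weights and a 22-position pattern along the feature numbers.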

Additional observations from a re-analysis of the deposited data

Results flagged for a closer look

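Within the 3 groups of 5 mice (CR females, AL males and AL females), 37 values of the 40 named features lay far from the other 4 by a gap test, over 120 sets. Chance passes this test in about 5% of independent sets that were not selected. Many of these features were chosen by small p with arrays 32 and 33 in the fit, and all sets reuse the same arrays. That rate is therefore no expectation for the 37. The 3 CR males were too few to test. Arrays 32 and 33 gave 29 of the 37.

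Array 32, a CR female, was the highest CR female for Wdr47 (0.78), Rps15 (0.98) and Txndc17 (-0.45). It was the lowest for Uqcrb (-1.20), Cst3 (-0.37), Ngdn (-0.52) and Id2 (-0.29, the second clone). It was also the lowest for the second clone of Timp2 (-0.87), for another clone of Rps15 (0.46) and for 3 clones of Hbb-y (-0.17, -0.14 and 0.05).

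Array 33, an AL male, was the highest AL male for Sgk1 (-1.10), Id2 (0.00), Lifr (-0.08), Hbb-y (0.18), Txndc17 (0.59) and a clone of Anxa7 (0.06). It was the lowest for Wdr47 (0.05), Anxa7 (-1.21), Cst3 (-0.90), Ngdn (-0.84), another clone of Anapc1 (1.11) and the second clone of Timp2 (-1.37). It was also the lowest for 3 clones of Rps15 (0.28, 1.21 and -0.31), the second clone of Id2 (-1.13) and that of Uqcrb (-0.49).

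The other 8 values came from 4 arrays. The CR female of array 4 was lowest for Platr26 (-1.65). The AL female of array 60 was lowest for Rps15 (0.23), Eif4g3 (0.71) and Lmcd1 (0.13). The AL female of array 6 was lowest for Platr26 (-1.37) and highest for Hbb-y (-0.34), and that of array 34 lowest for Adgra3 (0.18) and highest for a clone of Anapc1 (0.49).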

How the results depend on the processing

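With all 65 arrays 2 features were called for CR against AL at 6 months. The count was 1, Sgk1, without arrays 31 to 33, without them and with the array run as a covariate, with the 18 arrays of 6 months only, after centring on 22 feature positions, with array weights and in the first run alone, and 0 among features with a mean Z above 0, where neither called feature lies. It stayed at 2, Sgk1 and Plk2, with rounds of 14 arrays as a random block, without sex in the means, after quantile or median scaling, with a robust trend and without a 24-month array whose description names another mouse. The first steps of the selection rule of the study (mean Z above 0, a z-ratio of at least 1.5 and an unadjusted p below 0.05), without the ANOVA that followed them there, gave 46, 15 in males and 16 in females. Leaving out 1 mouse gave 1 to 5 calls, 1 without AL male 1 or 3, CR male 2 or CR female 3 or 5, 3 without CR male 3 and 5 without CR male 1. In males it gave 0 to 3 calls, all of them without CR male 1 or 3 or AL male 3 or 5, and in females 0. The first run gave 1 call, Sgk1, in males and 1 in the 6-month effect against that of 24 months. The cause of these shifts was not tested. Of the alternatives for single named features, 1232 kept direction and side of the threshold, 12 passed it newly and 13 no longer passed, and none turned the direction of a called value. Only Sgk1 and Plk2 were called in the main fit, so the 13 losses can fall on these genes alone. Most of the 1232 belong to values that had no call to lose and do not show that the calls are stable. No paired analysis was run, and the labels name no pairs of mice between the groups. The rounds of 14 arrays above, taken from the array numbers, were the only block run, with a correlation within rounds of 0.1286. The main fit does not use them. Dim clones such as those of Sgk1 and Plk2 have weak signals (percentiles 9.96 and 5.28 of the array), which limits what their differences can show.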

Other observations

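A feature with no gene symbol, number 10670, came closest to the 2 called features in some fits. It measured -1.96, -1.25 and -1.98 in CR males, against -2.01, -2.04, -2.17, -2.16 and -2.22 in AL males. In CR females it measured -1.69, -1.92, -1.55, -2.02 and -1.69, against -2.01, -2.02, -2.05, -2.36 and -2.25 in AL females. The difference was 0.377 (SE 0.086, limma adjusted p = 0.151) with all mice and 0.223 (adjusted p = 1.00) without arrays 31 to 33, and it was called without CR male 1 and without CR male 3. This feature, too, gave a weak signal, at the 3.05 percentile of the array.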
